A study of Arabidopsis thaliana with 16 samples.

Results

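Transcript levels in root tips of the wer myb23 double mutant were compared with those of the cpc try double mutant of Arabidopsis thaliana, both on standard medium. The comparison used 2 arrays of each genotype, 4 of the 16 Affymetrix ATH1 arrays of the series, and took in every probe set except the 64 control probe sets. Of the 22746 remaining, 17059 passed a filter on low signal and were tested. The arrays were chosen by label, with no measured value in the rule, while earlier results of these data were known.

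The wer myb23 seedlings carried the alleles wer-1 and myb23-1, and the cpc try seedlings carried cpc-1 and try-82. Wild type and scm seedlings, measured on other arrays of the series, are used below as further points of reference. Their arrays and the salt arrays also entered the main fit. They thus contributed to the estimate of spread behind its standard errors (SE) and adjusted p-values. All seedlings were of the Columbia ecotype, 5 days old, and had been moved to fresh plates for 1 hour. About 30 root tips, cut about 5 mm above the tip, were pooled for each array, and the labels call the 2 arrays of a group biological replicates. An array therefore averages whole root tips, in which fewer cells of a type and less RNA per cell cannot be told apart. The labels give the allele names and no lesion.

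The Arabidopsis root epidermis forms hair cells and non-hair cells in files set by the position of a cell over the cortex. WEREWOLF and MYB23 are MYB transcription factors that promote non-hair fate, and CAPRICE and TRIPTYCHON are small MYB proteins that move into neighbouring cells and oppose it. Roots without WEREWOLF and MYB23 are known for hairs in nearly every file and roots without CAPRICE and TRIPTYCHON for almost none, so the comparison sets a hair-rich genotype against a hair-poor one.

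The labels differ on the medium. For these 4 arrays the titles and descriptions name standard medium, and the growth medium entry names 140 mM NaCl, after 5 days for wer myb23 and after 4 days for cpc try. The titles and descriptions were followed. LEA4-5 (AT5G06760), a protein of the late embryogenesis abundant class that seeds and dehydrated tissues accumulate, had signals of 4368 and 3002 in wer myb23 and 3205 and 3388 in cpc try on the arrays titled salt, against 37.1 and 26.9 in wer myb23 and 89.1 and 87.0 in cpc try on those titled standard. The ubiquitin ligase PUB19 had 1734 and 1555 in wer myb23 and 1419 and 1584 in cpc try on salt, against 59.0 and 55.1 in wer myb23 and 54.9 and 79.5 in cpc try on standard medium. Both genes were thus low on all 4 arrays studied here. Of the same list of 6 tested salt and dehydration genes, COR47 and LTI30 were strong on both media. COR47 had 12041 and 12223 in wer myb23 and 15206.5 and 13818.5 in cpc try on standard medium. On salt COR47 had 20482 and 17829 in wer myb23 and 19793 and 23763 in cpc try. All 6 had higher signals on salt in both genotypes. Whether the 2 genotypes also differed by a day of growth cannot be told apart from genotype.

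Signals are linear MAS5 intensities scaled by the authors to the same trimmed mean on each array (250.0), and the median signal of the 4 arrays lay between 72.6 and 77.8. Differences are given as wer myb23 minus cpc try on the scale log2(signal + 4.1), which shrinks the change of dim probe sets. Log2 values correlated across probe sets at r = 0.959 between the wer myb23 replicates and 0.942 between the cpc try replicates, and at 0.908 to 0.917 between the genotypes. On the log2 scale, the GAPDH control had a ratio of 3′ to 5′ signal of 1.68 and 1.45 in wer myb23 and 1.99 and 1.65 in cpc try, so the groups overlapped. The 25S ribosomal RNA control signal was 2788 and 2512 in wer myb23 and 4517 and 3180 in cpc try, with no overlap, and its part in the results was not tested.

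The annotation used here gave a single gene for 9577 of the 17059 probe sets (56.1%), so the families described below are only partly covered. Of the mutated genes it names TRY alone. WER, MYB23, CPC, and the hair regulators GL2, RHD6 and RSL4 were not analysed here.

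Root tips of the 2 mutants differed at 1122 probe sets, or 6.58% of those tested, by limma at an adjusted p under 0.05. Of these, 706 (4.14%) were higher and 416 (2.44%) lower in wer myb23, while median-centring gave 626 higher and 473 lower. The higher ones went further from 0. Among them 100 exceeded a log2 difference of 3 and 24 exceeded 5, whereas 17 of the lower ones were beyond -3 and 1 beyond -5. The median difference was 1.25 for the higher and -0.95 for the lower probe sets, against 0.01 for all probe sets tested. None of the 1122 had overlapping arrays, as was also true of 50% of all probe sets tested. At an unadjusted p under 0.05, 3052 probe sets passed. The count fell to 595 and 634 when wer myb23 replicate 1 or 2 was left out, to 721 without cpc try replicate 2, and to 646 without a trend in the spread.

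**Figure D1:**
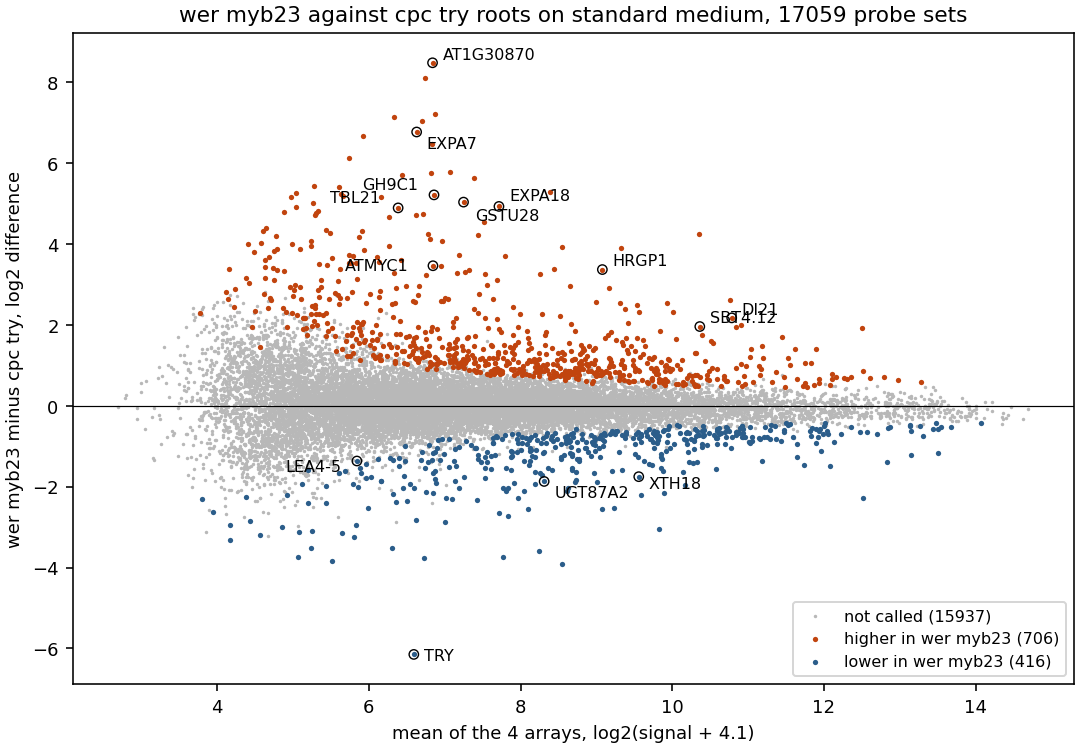
Log2 difference of each of the 17059 probe sets (vertical axis, wer myb23 minus cpc try) against the mean log2 signal of the 4 arrays (horizontal axis). The 706 probe sets called higher reach 8.48 at AT1G30870, and of the 416 called lower TRY stands lowest at -6.15.

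Among the mutated genes, TRY (AT5G53200) had signals of 1.90 and 17.8 in wer myb23, against 751 and 870.0 in cpc try. The log2 difference was -6.15 ± 0.57 (SE, limma adjusted p = 2.4e-07), so TRY was strongest in the genotype that carries a try allele. Without wer myb23 replicate 1 or 2 the difference was -7.08 to -5.21. Wild type stood between, at 47.8 and 49.7, and wer myb23 did not differ from wild type past the threshold (log2 -2.20, limma adjusted p = 0.2). Whether the signal in cpc try came from a mutant form of the transcript was not tested.

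The other epidermal patterning genes with a tested probe set were ATMYC1, JKD and GEM, out of 19 genes listed. ATMYC1 (AT4G00480), a helix-loop-helix protein that works with the epidermal MYB proteins, had signals of 418 and 341 in wer myb23 and 24.4 and 38.0 in cpc try. All arrays of wer myb23 lay about an order of magnitude above those of cpc try, a difference of 3.46 ± 0.31 (log2, SE, limma adjusted p = 1.2e-07). Wild type, at 299 and 272, was near wer myb23. JKD, a zinc finger protein of the cortex and endodermis that signals to the epidermis, differed by -0.17 (adjusted p = 0.89) and GEM, a regulator of epidermal division and fate, by 0.00 (adjusted p = 0.99) in limma, and neither passed.

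Of 28 listed regulators of hair growth the annotation names SCN1 (AT3G07880), a RhoGDP dissociation inhibitor that keeps a hair cell to a single outgrowth. Its signals were 1125 and 1175 in wer myb23 and 732 and 606 in cpc try. The gene was strong in both genotypes and higher in wer myb23 by 0.78 ± 0.16 (log2, SE, limma adjusted p = 0.0028).

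**Figure D2:**
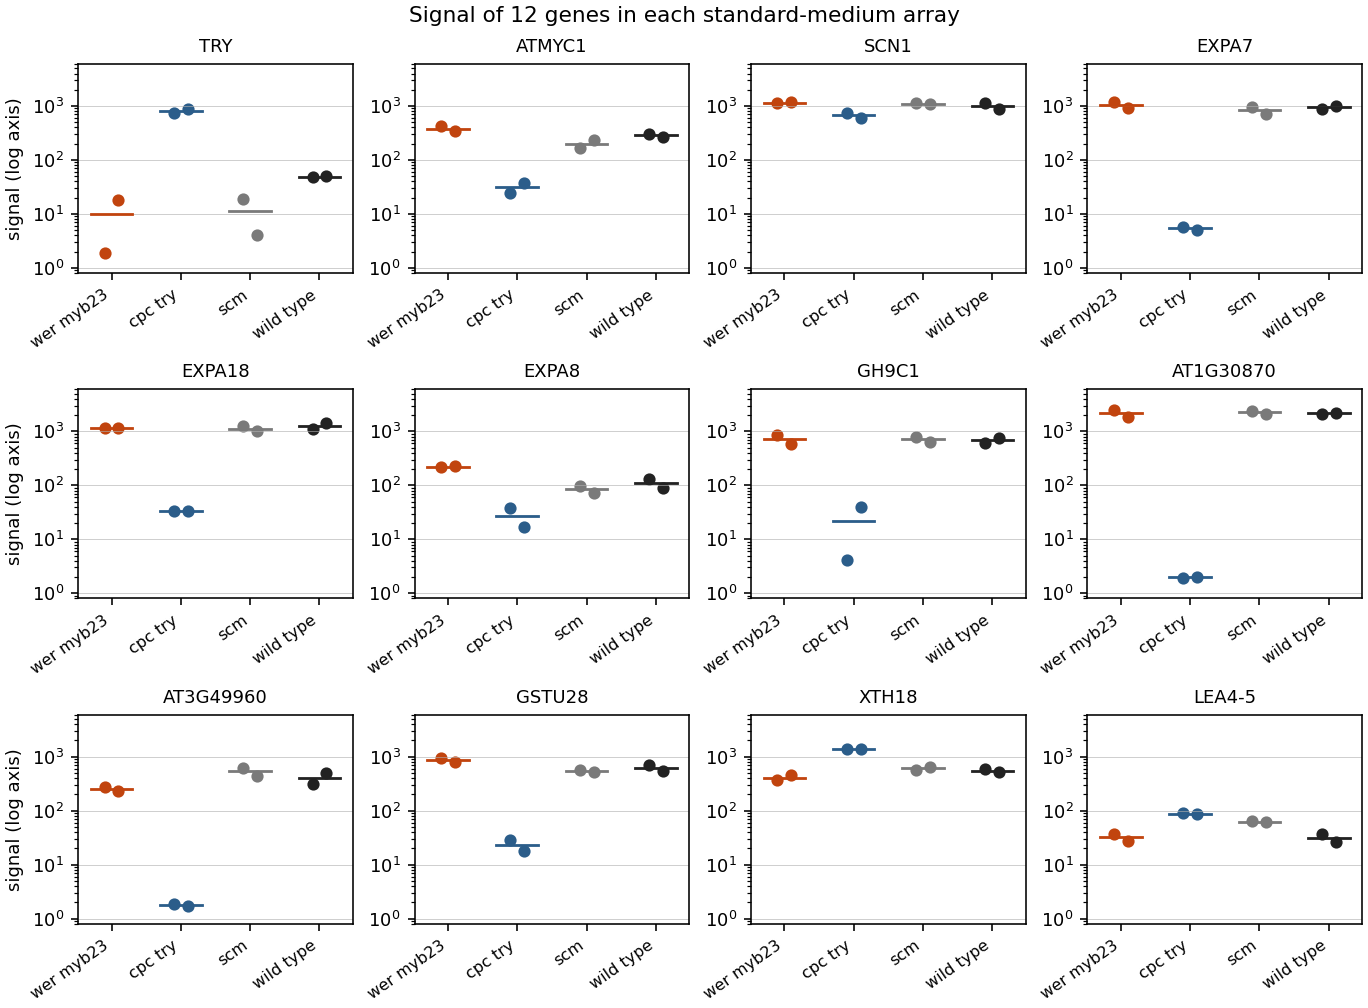
MAS5 signal (log axis) of 12 genes in each standard-medium array of wer myb23, cpc try, scm and wild type, with a line at the mean of the 2 arrays. EXPA7 and AT1G30870 lie under 10 in both cpc try arrays and above 700 in each array of the other genotypes, and TRY is highest in cpc try.

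Genes of the root hair wall were higher in wer myb23. Of 41 listed, the annotation names 10, of which 8 passed the filter. By limma 7 of the 8 were higher at the threshold, where 3.97% of the 9478 genes with a tested probe set were higher. The list was chosen with earlier results of these data known, so its share is descriptive and no independent evidence. AT5G17820 did not pass, at 0.05 (limma adjusted p = 0.94). The 7 were EXPA7, EXPA18, GH9C1 and the peroxidases AT1G30870, AT3G49960, AT4G26010 and AT1G34510. The same genes are counted again in the family lists below. The median difference of the 8 was 5.07 on the log2 scale, against 0.02 over those genes. AT1G30870, listed here among the class III peroxidases, had the largest difference among genes with a name. Its signals were 2493 and 1869 in wer myb23 and 1.90 and 2.03 in cpc try, a difference of 8.48 ± 0.40 (log2, SE, limma adjusted p = 1.1e-11), with 2129 and 2210.2 in wild type. The gene was thus among the strong signals of wild type and wer myb23 root tips and near the bottom of the scale in cpc try.

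The hair expansins followed the same order. Expansins loosen the wall by acting between cellulose and matrix glycans, and EXPA7 and EXPA18 are known from hair cells. EXPA7 (AT1G12560) had signals of 1171 and 905 in wer myb23 and 5.84 and 4.96 in cpc try, a difference of 6.77 ± 0.28 (SE, limma adjusted p = 1.3e-12). EXPA18 (AT1G62980) had 1162 and 1148 in wer myb23 and 34.0 and 34.0 in cpc try, a difference of 4.93 ± 0.41 (SE, limma adjusted p = 5.8e-08). Wild type had 874 and 1010.5 for EXPA7 and 1092 and 1445 for EXPA18, so cpc try was the genotype that stood apart for both. Among the 15 expansins and expansin-like genes tested, out of 26 listed, EXPA8 (AT2G40610) was the only other to pass. It had 216 and 228 in wer myb23 and 37.8 and 17.2 in cpc try, a difference of 2.92 ± 0.53 (SE, limma adjusted p = 0.0011). Of the 15, 20% were higher, against 3.97% of all genes, a share that includes EXPA7 and EXPA18 of the hair wall list. None of the 15 was lower, where 2.15% of all genes were. EXPA16 stood at -2.63 (limma adjusted p = 0.083), and the median of the 15 was 0.16.

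GH9C1 (AT1G48930), an endoglucanase with a carbohydrate-binding part, had signals of 847 and 583 in wer myb23 and 4.21 and 39.6 in cpc try (log2 5.21 ± 0.45, SE, limma adjusted p = 8.5e-08). Its 2 cpc try arrays differed widely, and the difference was 4.01 to 6.41 as one or the other was left out. Its relative GH9C2 (AT1G64390) went the other way, with 155 and 155 in wer myb23 and 339.5 and 359 in cpc try (log2 -1.15 ± 0.23, SE, limma adjusted p = 0.0032). The 2 were the only ones called, 9.09% higher and 9.09% lower, among 11 tested genes of glycosyl hydrolase family 9, a list made, like those of the glycosyltransferases, glutathione S-transferases and other families drawn up by symbol below, after values were seen. GH9C3 was at -1.43 (adjusted p = 0.08).

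Class III peroxidases, secreted enzymes that use hydrogen peroxide to cross-link or loosen the wall, moved in both directions. Of 73 listed by locus, 43 were tested, and 7 were higher and 2 lower, 16.3% higher and 4.65% lower against 3.97% and 2.15% of all genes with a tested probe set. Their median was 0.04. Beside AT1G30870, AT3G49960 had 273 and 231 in wer myb23 and 1.83 and 1.72 in cpc try (log2 5.44 ± 0.67, SE, limma adjusted p = 1.2e-05), and AT1G34510 differed by 3.81. AT3G21770 (1.50), AT2G18980 (1.18), AT4G26010 (1.12) and AT2G37130 (1.05) were higher by smaller log2 differences. By limma the lower ones were AT2G39040 at -2.10 (adjusted p = 1.5e-06) and AT4G36430 at -1.25 (adjusted p = 0.026).

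Further wall and surface proteins were among the called genes, grouped here after their values were seen. HRGP1 (AT3G54590), a hydroxyproline-rich extensin, had 1867 and 1608 in wer myb23 and 211 and 127 in cpc try (log2 3.37 ± 0.34, SE, limma adjusted p = 7e-07), with more still in wild type (2789 and 3457). CSLD2 (AT5G16910), a cellulose synthase-like protein needed for tip growth of hairs, had 1005 and 895 in wer myb23 and 499 and 376 in cpc try (log2 1.12 ± 0.17, SE, limma adjusted p = 0.00016), and was the only one called of 7 tested cellulose synthase-like genes (14.3% against 3.97%). TBL21 (AT5G15890), of a family whose known members acetylate wall polysaccharides, had 514 and 397 in wer myb23 and 1.05 and 41.6 in cpc try (log2 4.89 ± 0.60, SE). The 2 cpc try arrays of TBL21 differed widely, and the difference was 3.32 to 6.47 as one or the other was left out. TBL32 was higher by 1.17 and the other 16 tested TBL genes did not pass, so that 11.1% of the 18 were higher, against 3.97% of all genes. SBT4.12, a secreted subtilase, was higher by 1.96 ± 0.15 (SE, limma adjusted p = 1.8e-08).

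Xyloglucan endotransglucosylases/hydrolases, which cut and rejoin xyloglucan, lay on the other side. Of 33 listed, 8 were tested, and 3 were lower in limma (2 after quantile normalization, 4 after median-centring), where 2.15% of genes were lower. None of the 8 was higher, and the median was -1.04. XTH18 (AT4G30280) had 363 and 456 in wer myb23 and 1362 and 1399.9 in cpc try (log2 -1.75 ± 0.25, SE, limma adjusted p = 7e-05). XTH19 (AT4G30290) had 974 and 990.0 in wer myb23 and 1568 and 1717 in cpc try (log2 -0.74 ± 0.17, SE). XTH20 was at -1.37 (adjusted p = 0.044) and lost the call with a pseudocount of 1, with no filter on low signal, under quantile normalization, on the 8 standard arrays alone and without a trend in the spread. The remaining 5 were at negative values without passing.

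**Figure D3:**
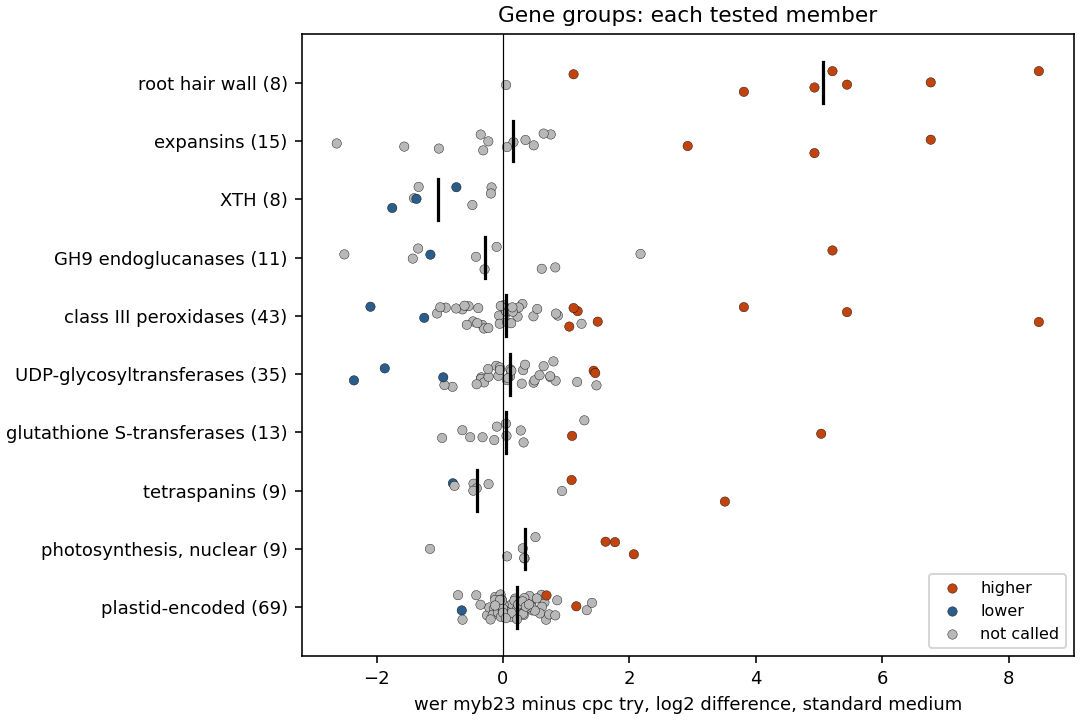
Log2 difference (horizontal axis, wer myb23 minus cpc try) of each tested member of 10 gene groups, one dot a gene, red where called higher, blue where called lower and grey where not called, with a bar at the group median. The root hair wall group has its median at 5.07 and the XTH group at -1.04, and the other groups have medians between -0.42 and 0.34.

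Of the 2 markers of the cortex, the layer under the epidermis, 1 was lower in wer myb23 (50%, against 2.15% of all genes). That call was lost whichever array was left out. AT1G09750 had 285 and 300.4 in wer myb23 and 647 and 619 in cpc try (log2 -1.10 ± 0.25, SE, limma adjusted p = 0.0088), and AT1G62500 was at -1.02 (adjusted p = 0.17). Their summed signal was 350.3 and 359 in wer myb23 and 785 and 742 in cpc try. The single stele marker measured, LHW, was at -0.31 (adjusted p = 0.62), and markers of endodermis, root cap, meristem and shoot were not analysed here. The part that cell type proportions play in the differences above was not tested. The 3 reference genes measured were at -0.09 (GAPC2), -0.06 (AT4G34270) and 0.02 (AT2G28390), and none passed (lowest limma adjusted p = 0.8). Of 20 listed auxin and ethylene genes 2 were tested, EIN3 at 0.02 and GH3.3 at -0.28, and neither passed.

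The 12 genes with the largest rise in wer myb23 over cpc try, among called genes with a single annotated gene, included 6 described above and GSTU28 (AT1G53680), a tau-class glutathione S-transferase. GSTU28 had 936 and 801 in wer myb23 and 28.6 and 17.5 in cpc try (log2 5.03 ± 0.39, SE, limma adjusted p = 2e-08). GSTU26 was higher by 1.09 and the other 11 tested glutathione S-transferases did not pass (15.4% higher against 3.97%). The remaining genes carry only a locus number here. AT2G47540 had 1174 and 1197 in wer myb23 and 4.44 and 5.52 in cpc try (log2 7.04 ± 0.23, SE). AT2G34910 (5.74), AT2G40010 (5.41), AT3G12540 (5.01) and AT5G43030 (4.78) were all above 100 in both wer myb23 arrays and under 35 in both cpc try arrays.

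Of the 100 probe sets with a log2 difference over 3, 55 were under the 25th percentile of all signals (21.7) in both cpc try arrays, so those differences have a dim side whose true level is not resolved. The largest differences include probe sets with no gene name here, the first of them with 2061 and 1499 in wer myb23 and 1.59 and 3.21 in cpc try.

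Among probe sets with a single annotated gene, the largest falls in wer myb23 after TRY were carried by genes that have only locus numbers here. Another 2 probe sets with no gene name here fell further than these, at -3.92 and -3.84. AT5G19100 had 105 and 65.4 in wer myb23 and 1536 and 716 in cpc try (log2 -3.60 ± 0.51, SE, limma adjusted p = 6.5e-05). AT3G47380, the one with the smallest error, had 234 and 203 in wer myb23 and 1228 and 1361 in cpc try (log2 -2.54 ± 0.19, SE, limma adjusted p = 1.8e-08). AT3G29410 was at -3.75, AT1G44830 at -2.87 and AT5G51930 at -3.26. AT1G33600, AT1G22810, AT1G24430, AT4G03150, AT3G22060 and AT5G22580 completed the set, from -3.18 to -2.39. Of these AT1G33600 and AT1G24430 did not pass with a pseudocount of 1, nor AT4G03150 with one of 32. All of AT1G33600, AT1G24430 and AT4G03150 failed on the 8 standard arrays alone. AT4G03150 also failed on the 4 compared arrays alone, and AT5G22580 without a trend in the spread.

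UDP-glycosyltransferases, which attach sugars to small molecules, moved in both directions. Of 35 tested, 2 were higher and 3 lower, 5.71% higher and 8.57% lower against 3.97% and 2.15% of all genes, and their median was 0.11. UGT78D2 (AT5G17050), which adds glucose to flavonols and anthocyanidins, had 527 and 518 in wer myb23 and 1009.9 and 1011 in cpc try (log2 -0.95 ± 0.18, SE, limma adjusted p = 0.0017). UGT84A1, which makes glucose esters of hydroxycinnamates, was lower at -2.36 ± 0.59 (SE, limma adjusted p = 0.017), as was UGT87A2 by the same test at -1.87 (adjusted p = 2e-06). UGT72E1, a glucosyltransferase of phenylpropanoid aldehydes, was higher by 1.46 ± 0.38 (SE, limma adjusted p = 0.02), and UGT71C2 by 1.43. UGT72E2 and UGT72E3, its relatives, were at 0.58 and 0.75 and did not pass. CHIL, a non-catalytic partner of chalcone synthase picked out after its value was seen, was lower at -1.28 ± 0.26 (SE, limma adjusted p = 0.003). Of 11 listed flavonoid genes, DFR (-0.32) and UF3GT (-0.92) were tested and neither passed.

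Some single genes follow that were picked after their values were seen and stand for no pathway. VTC4, a phosphatase of ascorbate synthesis, had 335 and 302 in wer myb23 and 702 and 628 in cpc try (log2 -1.05 ± 0.19, SE, limma adjusted p = 0.0013), and GLDH, the last enzyme of that synthesis, was at -0.75 ± 0.19 (SE, limma adjusted p = 0.022) and lost the call without 3 of the 4 arrays. EXO, a protein known from brassinosteroid responses, had 176 and 149 in wer myb23 and 539 and 480.3 in cpc try (log2 -1.63 ± 0.30, SE). The beta-tubulin TUB1 (-0.52) and the calreticulin CRT1b (-0.71) were lower by small differences of strong signals.

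Other single genes, picked in the same way, were higher in wer myb23. MCCA, a subunit of methylcrotonyl-CoA carboxylase in leucine breakdown, had 248 and 246 in wer myb23 and 91.3 and 80.9 in cpc try (log2 1.48 ± 0.37, SE, limma adjusted p = 0.016). IVD, isovaleryl-CoA dehydrogenase, was at 0.80 ± 0.24 (SE, limma adjusted p = 0.049) and ETFALPHA, a subunit of the flavoprotein that takes its electrons, at 0.77 ± 0.22 (SE, limma adjusted p = 0.041), and both lost the call under quantile normalization and under median-centring. Leaving out any 1 of the 4 arrays ended the call of MCCA and of IVD, and ETFALPHA lost its call without 3 of the 4. The transcription factor BZIP53, known to act on amino acid breakdown in starved leaves, had 1300.0 and 1341 in wer myb23 and 535 and 604 in cpc try (log2 1.21 ± 0.15, SE, limma adjusted p = 1.6e-05). The autophagy genes ATG8F (0.76) and ATG8H (0.91) were higher, and the other 6 autophagy genes tested did not pass (25% higher against 3.97%).

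Of a list of photosynthesis genes drawn up after values were seen, 3 were higher. PSAE-1, a photosystem I subunit, had 148 and 109 in wer myb23 and 31.4 and 37.6 in cpc try (log2 1.77, limma adjusted p = 0.00032). LHCB4.2, a light-harvesting protein, had 130.0 and 96.3 in wer myb23 and 28.8 and 39.1 in cpc try (log2 1.62, limma adjusted p = 0.0067). NdhS, a subunit of the plastid NDH complex, had 103 and 124 in wer myb23 and 34.3 and 16.2 in cpc try (log2 2.07, limma adjusted p = 0.00076). These 3 were the called ones of 9 tested nuclear genes of the photosystems and that complex, or 33.3% against 3.97% of all genes. Of 69 plastid-encoded genes tested, ndhD (1.16) and ccsA (0.69) were higher and rps4 (-0.65) lower. These are 2.9% higher and 1.45% lower, below the shares over all genes, and the median was 0.22.

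Other strong signals with clear differences, picked after their values were seen, were those of an endomembrane protein, of lectins and of DI21. NAI2 (AT3G15950), needed to form endoplasmic reticulum bodies, had 3610.3 and 4161 in wer myb23 and 1446 and 1326 in cpc try (log2 1.48 ± 0.14, SE, limma adjusted p = 2.1e-07). JAL33, a jacalin-related lectin, had 3600.4 and 4094 in wer myb23 and 1229.8 and 746 in cpc try (log2 2.00 ± 0.21, SE). JAL34 was higher by 0.70 and JAL22 lower, at -2.03, so the 3 tested lectins of the family did not move one way. Of the 3, 66.7% were higher and 33.3% lower, against 3.97% and 2.15% of all genes. DI21, named for induction by drought, had 3359 and 4166 in wer myb23 and 819 and 834 in cpc try (log2 2.17 ± 0.17, SE).

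Of 131 called genes followed singly, 54 kept the call when each of the 4 arrays was left out in turn. Those named here that lost it whichever array was left out were AT1G33600, AT1G24430, AT4G03150, AT5G22580, AT1G09750, AT4G36430, UGT72E1, TBL32, rps4, IVD, TUB1 and MCCA, with limma adjusted p up to 0.34. Those that lost it without 1, 2 or 3 of the arrays were AT3G29410, AT5G51930, AT3G22060, SCN1, XTH19, XTH20, AT2G37130, UGT84A1, UGT71C2, JAL34, JAL22, TET12, ATG8F, ATG8H, LHCB4.2, ccsA, ndhD, SWEET16, CHIL, GLDH and ETFALPHA, with limma adjusted p up to 0.42. None of these changed direction. Leaving out 1 array moved the fold by over 1.5 times for 13 of the 131. Beside TRY, GH9C1 and TBL21 those named here were AT2G34910 (4.44 to 7.05), AT3G29410 (-4.59 to -2.91), AT5G51930 (-4.25 to -2.26), AT1G22810 (-4.09 to -2.14), AT1G24430 (-3.63 to -2.39), AT3G22060 (-3.30 to -1.74), JAL22 (-2.94 to -1.12) and SWEET16 (1.03 to 2.31), with the lowest and highest log2 difference in parentheses.

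Wild type was set beside both mutants. The growth medium entry gives 5 days for wild type, as for wer myb23, and 4 days for scm, as for cpc try. The log2 ratio of 3′ to 5′ signal of the GAPDH control was 2.43 and 2.34 in wild type, above all 4 compared arrays. The part that the days or this control measure play in the results below was not tested. For 635 of the 706 higher probe sets (89.9%) and 315 of the 416 lower ones (75.7%), the wild type mean on standard medium lay nearer to wer myb23 than to cpc try. With the cpc try mean set to 0 and the wer myb23 mean to 1, the median position of wild type was 0.91 for the higher and 0.71 for the lower probe sets. All 100 probe sets with a log2 difference over 3 had wild type nearer to wer myb23. Against wild type, 15 probe sets were called in wer myb23 (0.0879% of those tested, 5 higher and 10 lower, or 7 and 6 after median-centring; 1469 at an unadjusted p under 0.05) and 1064 in cpc try (6.24%, 402 higher and 662 lower, or 748 and 525 after median-centring), by limma. The 2 comparisons share the wild type arrays. The mean of scm lay nearer to wer myb23 than to cpc try at 897 of the 1122 probe sets (79.9%).

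**Figure D4:**
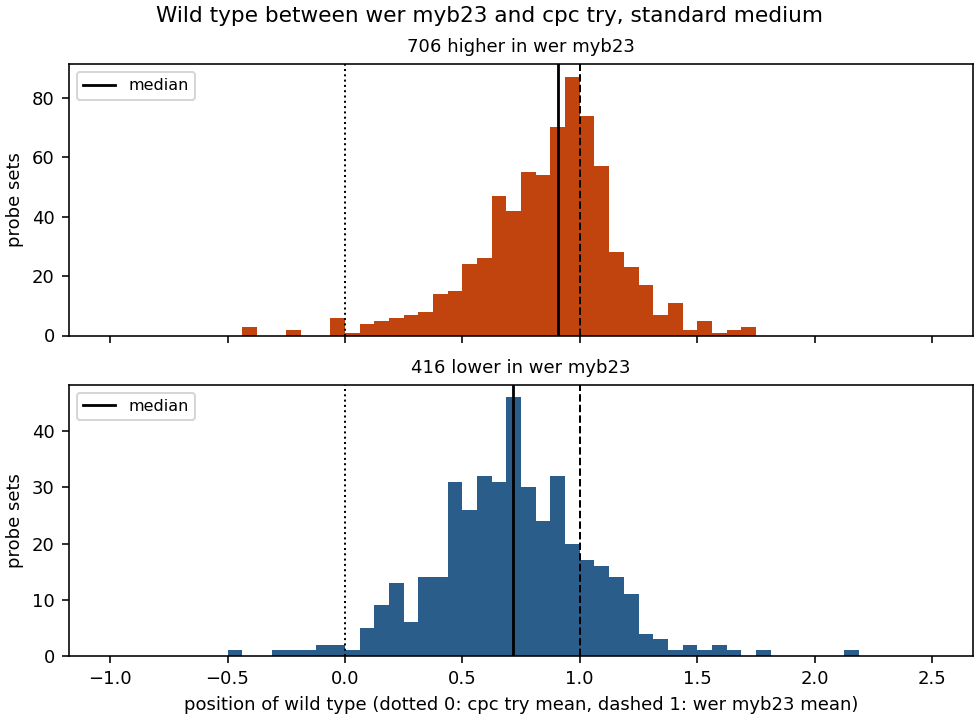
Number of probe sets (vertical axis) by the position of the wild type mean between cpc try (0) and wer myb23 (1) on the log2 scale (horizontal axis), above for the 706 probe sets higher and below for the 416 lower in wer myb23. The medians, 0.91 and 0.71, both lie nearer to the wer myb23 mean.

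The same genotypes on medium with 140 mM NaCl gave a comparison on other arrays. The 2 cpc try salt arrays were unlike in the GAPDH control, with log2 ratios of 3′ to 5′ signal of 2.79 and 1.46. Their log2 ratios of 3′ to middle signal for the actin control were 2.77 and 1.36. In wer myb23 on salt the GAPDH ratios were 1.65 and 1.65, and the actin ratios 2.03 and 2.00. The part of this in the salt results was not tested. Of the 1122 probe sets, 1048 had the same sign on salt and 630 (56.1%) were called in the same direction. Of all tested probe sets, 8.59% were called on salt in either direction. Both comparisons came from one fit with a shared estimate of spread for each probe set, so the 2 sets of calls are not independent. Of those called on standard medium, 5 were called on salt in the opposite direction. Of the 100 probe sets with a log2 difference over 3, 80 were called higher on salt as well, as were 5.05% of all probe sets tested. ATMYC1 had signals of 409.8 and 356 in wer myb23 and 4.24 and 11.8 in cpc try on salt, a log2 difference of 5.07 on salt and 3.46 on standard medium. XTH18 was at -1.54 on salt and -1.75 on standard medium. TRY was at -3.95 on salt and -6.15 on standard medium. The tetraspanin TET12 (AT5G23030) was at -0.60 on salt (limma adjusted p = 0.74) and 3.51 on standard medium (limma adjusted p = 0.0062). The test of that change between the media gave a limma adjusted p of 0.2.

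**Figure D5:**
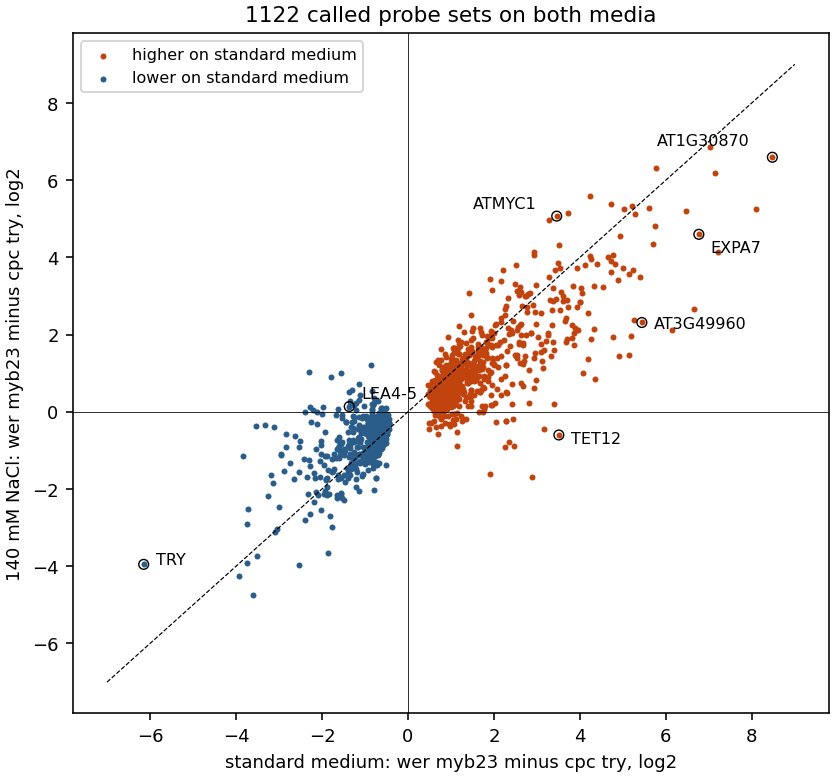
Log2 difference of the 1122 probe sets on 140 mM NaCl (vertical axis) against that on standard medium (horizontal axis), wer myb23 minus cpc try, with the line of equal differences dashed. Of the 1122, 1048 lie on the same side of 0 on both media.

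The genotype difference itself changed with the medium at 31 probe sets (0.182%, 13 higher and 18 lower, limma adjusted p under 0.05; 1397 at an unadjusted p under 0.05). EXPA7 had signals of 734 and 771 in wer myb23 and 41.7 and 17.3 in cpc try on salt, so the difference was 4.60 on salt and 6.77 on standard medium, a change of -2.17 ± 0.39 (SE, limma adjusted p = 0.024). LEA4-5 differed by 0.14 on salt and -1.37 on standard medium, a change of 1.50 ± 0.30 (SE, limma adjusted p = 0.037). LEA4-5 was called on standard medium (limma adjusted p = 0.0002) at a low signal in both genotypes, and lost that call when only the 8 standard arrays entered the fit. The other 5 tested genes of the salt and dehydration list were not called on standard medium, with STZ nearest at -0.89 (adjusted p = 0.06). With 31 called, the count ran from 2 to 83 as single arrays of the 2 genotypes were left out, and was 1 without a trend in the spread.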

How the data were processed

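Total RNA of pooled root tips was hybridized to Affymetrix ATH1 arrays after one-cycle amplification. Intensities on a linear scale were deposited for every probe set; MAS5 produced them, per the submitters' processing notes. No version or scaling target is given there. Each array held 22810 values.

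Values were transformed to log2(signal + 4.1), 4.1 being the table's 10th percentile, and probe sets whose mean log2 value lay under the 25th percentile were removed. All 16 arrays entered a limma 3.58.1 fit (R 4.3.3) with 8 group means, with a trend in the spread (8 residual and 12 prior degrees of freedom). P-values were two-sided and adjusted by the Benjamini-Hochberg method over 17059 probe sets per contrast. Precision is limited by the 2 arrays of each group. The test was tried on simulated data with 50 probe sets changed at each fold. Values were drawn from normal distributions with the fitted spreads, and far fewer probe sets were changed than the 1122 called in the data. The shares may thus differ in the measured data. In the simulation the test recovered 30% of those changed 2-fold, 72% at 4-fold and 88% at 8-fold, with 4 false calls. A gene that did not pass is therefore not shown to be unchanged.

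Genes came from the platform annotation and from RefSeq names (TAIR10.1) by gene number (13436 of 13513 probe sets with 1 gene matched). Another 503 had several genes and 8730 none listed. Named were TRY, EXPA7 and EXPA18, the 12 largest differences in each direction among called genes with 1 annotated gene and no overlapping arrays, and up to 4 called members of each list or 2 bright ones where none was called; others were named after their values were seen. The brightest probe set stood for a gene. Members and lists were chosen with earlier results of these data known. Alternatives were another pseudocount, filter, scaling, set of arrays, spread model, the replicate block and leaving out each array. Replicate numbers were not treated as pairs, since replicate differences of the 2 genotypes correlated at r = 0.019 across probe sets.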

Additional observations from a re-analysis of the deposited data

Results flagged for a closer look

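The genotype difference, wer myb23 minus cpc try, differed between salt and standard medium past the threshold for 15 genes with a single annotated gene, by limma's test of that change. The change, salt minus standard on the log2 scale, was negative for EXPA7, at -2.17 (adjusted p = 0.024), AT5G62150 at -1.89 (adjusted p = 0.0086), AT5G48430 at -2.01 (adjusted p = 0.02), AT5G06630 at -2.14 (adjusted p = 0.028), AT3G52500 at -1.07 (adjusted p = 0.036), AT3G10720 at -1.25 (adjusted p = 0.036) and AT2G15830 at -1.67 (adjusted p = 0.024). It was positive for LEA4-5, at 1.50 (adjusted p = 0.037), AT5G65470 at 1.44 (adjusted p = 0.024), AT5G48900 at 1.19 (adjusted p = 0.017), AT3G49220 at 1.55 (adjusted p = 0.02), AT4G36010 at 2.54 (adjusted p = 0.002), AT1G16850 at 2.08 (adjusted p = 0.0086) and AT2G41190 at 2.11 (adjusted p = 0.00085). AT4G16980 had a change of 1.88 (adjusted p = 0.036) at one of its 2 probe sets, and the other had -1.38 ± 1.44 (SE, limma adjusted p = 0.87), an imprecise value that did not pass. AT4G36010 had signals of 944 and 808 in wer myb23 and 516 and 368 in cpc try on salt, and 52.9 and 64.5 in wer myb23 and 205 and 155 in cpc try on standard medium. AT5G48430 had 99.1 and 76.0 in wer myb23 and 165 and 162 in cpc try on salt, and 932 and 1199 in wer myb23 and 448 and 513 in cpc try on standard medium.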

How the results depend on the processing

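With 2 arrays per group, the count of called probe sets moved most with the arrays and the spread model. For that count, the range given next covers only the 4 compared arrays on standard medium. Leaving out one array of the 2 genotypes gave 595 to 758 called, 374 to 549 higher and 209 to 221 lower; the lone array is then assumed to vary like the other groups. Without a trend in the spread 646 were called, 440 higher and 206 lower, and 620 of these were among the 1122. Other pseudocounts, filters, scalings, fits on 4 or 8 arrays and a robust spread gave 1027 to 1356. The fit with the replicate number as a block called 1190; the samples share only a number, and the block is no evidence of pairing. Calls shared by the media numbered 346 without a trend and 421 to 596 without single arrays. Changes between media numbered 1 without a trend and 2 to 83 without single arrays (8 without wer myb23 standard replicate 1, 2 without its replicate 2, 83 without cpc try salt replicate 1). Against wild type, wer myb23 gave 8 calls with a pseudocount of 1, 8 with no filter, 23 on the 8 standard arrays, 2 without a trend and 4 to 37 without single arrays, and cpc try 613 without a trend and 641 to 745 without single arrays. Alternatives for the wild type comparisons, and single arrays left out of the media comparisons, were chosen after seeing the data. Of 131 called genes followed singly, 121 kept the call under quantile normalization, 124 under median-centring and 78 without a trend, and none changed sign in these. The causes were not tested. Dim probe sets limit the size of the largest differences.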

Other observations

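Called genes were spread over the genome. Among the 9455 genes placed in RefSeq gene order, 575 were called (6.08%). Of the 100 tested genes nearest to each mutated gene, 50 on each side, 4 were higher and 0 lower around WER, 3 and 1 around MYB23, 5 and 0 around CPC, and 4 and 2 around TRY, shares of 4% to 6%. By chromosome, 64 genes were higher and 36 lower of 1416 on chromosome 2, and 87 higher and 52 lower of 2244 on chromosome 5.

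Mitochondrial and sugar proteins, picked after their values were seen, were also among the called genes. SDH1-2, a flavoprotein subunit of succinate dehydrogenase, had 176 and 139.5 in wer myb23 and 19.1 and 38.3 in cpc try (log2 2.36 ± 0.40, SE, limma adjusted p = 0.00057). SWEET16, a sugar carrier of the vacuole, had 164 and 174 in wer myb23 and 80.4 and 30.7 in cpc try, and was the one called of 12 tested SWEET genes (8.33% against 3.97% of all genes). CuAO1, a copper amine oxidase, was higher by 1.32 ± 0.17 (SE, limma adjusted p = 1.9e-05).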
